A study of Danio rerio with 2 samples.

Results

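The hormone genes of the pituitary gland and the hypothalamus were followed in zebrafish larvae at 3 days post fertilization (dpf). The set held 10 genes, *gh1*, *prl*, *pomca*, *tshba*, *cga*, *smtla*, *smtlb*, *hcrt*, *oxt* and *avp*, of 12858 genes that the array probes matched. Members were found by matching each probe's RefSeq accession to a gene, and all 10 had a probe. *oxt* was measured by 2 matched probes and each of the other 9 genes by 1. Probes without a RefSeq accession were not matched, so the array may hold further probes for these genes. The arrays compared larvae that received 8 ng of a control morpholino (Ctrl MO) with larvae that received 8 ng of a morpholino against *miR-132* (*miR-132* MO). Morpholinos are antisense oligonucleotides that pair with a chosen RNA and block it. They were injected at the 1-cell stage and become diluted as cells divide, and both groups carried a morpholino. The labels call the tissue embryos and name no body part, so the RNA is taken as that of whole larvae. The strain used for the arrays and the number of larvae behind each RNA sample are not given in the sources used here. In the study's general husbandry, phenylthiourea (PTU) was added to the medium against pigment. Whether the larvae of the arrays had it is not stated, and its part in the values below was not tested. Each group was 1 one-colour (Cy3) array, so no value has a replicate error and no test was made. In RNA of whole larvae, fewer cells of a type and less RNA per cell cannot be told apart.

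The pituitary and the hypothalamus lie at the base of the brain. Hypothalamic neurons release peptides that set the output of the pituitary's hormone cells, and some, such as those that make oxytocin and vasopressin, send axons into the pituitary and release hormone there. Each pituitary cell type is known by its hormone: corticotropes and melanotropes make proopiomelanocortin, thyrotropes thyrotropin, somatotropes growth hormone, lactotropes prolactin, and in fish a further cell type makes somatolactin. Hypocretin is a peptide of a small group of hypothalamic neurons known for wakefulness and feeding.

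Each array held 43603 probes for transcripts. On the Ctrl MO array 88.0% of their spots were well above background, and on the *miR-132* MO array 80.3% were. The faintest spot that passed had an intensity of 7.17 on the Ctrl MO array against 16.8 on the *miR-132* MO array, and the negative control spots had an SD of 2.98 and 17.2, respectively. A dim gene could thus pass on the Ctrl MO array and not on the other. Below, an intensity is the processed signal of a spot in the scanner's own units. A log2 ratio is *miR-132* MO minus Ctrl MO after each array was set to its 75th percentile (731 and 866), so a negative ratio is a lower level in *miR-132* MO larvae. As a measure of spot noise, 25 probes printed on 5 spots each gave a median SD of 0.10 for the log2 ratio of a single spot, with a range from 0.014 to 0.47. That SD covers the array only and not the variation between larvae. No probe matched a *miR-132* gene, so the knockdown itself cannot be read from these arrays.

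The 10 hormone genes differed in how well they were measured. For 7 of them both arrays read every probe well above background (*gh1*, *prl*, *pomca*, *tshba*, *smtlb*, *oxt* and *avp*). *hcrt* and *smtla* were well above background on the Ctrl MO array only, and *cga* on neither. A ratio could be given for 8 genes. Of these, *oxt* and *hcrt* (2 of 8) were lower by at least 1.5-fold after *miR-132* MO, where 8.02% of all 12052 genes with a ratio were that low. None of the 8 was at least 1.5-fold higher, against 4.08% of all genes. Among the 7 genes read above background on both arrays, *oxt* alone was lower and none was higher, beside 7.23% and 4.04% of all genes read that way. The median ratio of the 8 genes was -0.25, with 6 below 0 and 2 above, while the median of all genes was -0.01 and 51.1% of them lay below 0. With so few genes, and with no replicate, these counts describe the 2 arrays and do not set the hormone genes apart from others.

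**Figure D1:**
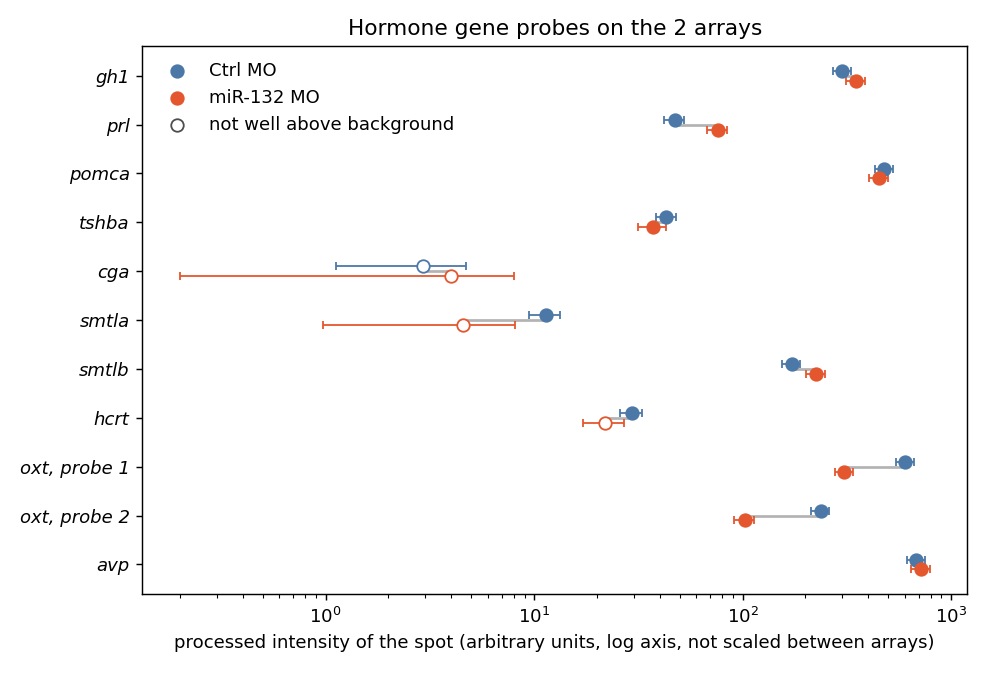
Processed intensity of the 11 hormone gene probes (log axis, arbitrary units, not scaled between arrays) on the Ctrl MO and *miR-132* MO arrays. Bars are the error the scanner software gives each spot (drawn no lower than 5% of the value), open circles are spots not well above background, and both *oxt* probes show a lower intensity in *miR-132* MO larvae.

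Of the 7 hormone genes read above background on both arrays, *oxt* had the largest difference. It encodes the precursor of isotocin, the oxytocin of fish, a short peptide made by neurosecretory neurons of the preoptic area. The first *oxt* probe had an intensity of 603 on the Ctrl MO array against 307 on the *miR-132* MO array. The second went from 237 to 102. The median foreground of both spots, at 710 against 407 and 271.5 against 137, stood above a local background of 36 to 39. After scaling, the first probe had a log2 ratio of -1.22, which is 2.33-fold lower, and the second a ratio of -1.46, which is 2.75-fold lower. Both probes carry the same transcript accession, so they are separate spots for 1 transcript of the same RNA samples and not replicates. They differed from each other by 0.24, and their mean ratio was -1.34, or 2.53-fold lower. The scanner software's own error, about 10% of each intensity, corresponds to an error of 0.20 and 0.21 for the 2 ratios. Of the 12052 genes, 233 had a lower ratio than *oxt*. For 6658 genes at least 2 probes gave a ratio, and all probes that did were well above background on both arrays. Of these genes, 1.52% had every such probe at least 2-fold lower, as *oxt* had. Within 2-fold of the first *oxt* probe's brightness on the Ctrl MO array lay 5850 probes that matched a gene and passed on both arrays. Of these, 7.28% were at least 1.5-fold lower.

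*avp*, the sister gene of *oxt*, did not share that difference. It encodes the precursor of vasotocin, the vasopressin of fish, which neighbouring neurosecretory neurons make and which acts on water balance and stress. Its probe had an intensity of 680 with Ctrl MO against 717 with *miR-132* MO, a ratio of -0.17 after scaling. The ratio of *oxt* lay 1.17 below that of *avp* on the log2 scale. The sign of the *avp* difference before scaling depended on how the spot was read, since the median foreground of the same spot was 770 on the Ctrl MO array against 732 on the *miR-132* MO array. The genes for the homeodomain factors Otpa and Otpb, which are needed in zebrafish for the neurons that make isotocin and vasotocin, were not lower. They were read in RNA of whole larvae, so their values do not describe those neurons alone. *otpa* had an intensity of 120 with Ctrl MO against 252 with *miR-132* MO, a ratio of 0.83 or 1.78-fold higher, from 1 probe. *otpb* had a ratio of 0.34, with 2 probes at 0.25 and 0.44. For the oxytocin receptor genes no ratio could be given: the *oxtr* probe was not well above background on either array, and the *oxtrl* probe only on the Ctrl MO array.

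*hcrt*, which encodes hypocretin (orexin), was the other gene past 1.5-fold, on a dim reading. Its probe had an intensity of 29.4 on the Ctrl MO array against 21.99 on the *miR-132* MO array, where it was not well above background. The median foreground of the spot was 68.5 and 58.5, over a local background of 35 and 38. For such a probe the dim side is taken as the larger of its own reading and the faintest reading that passed on that array, here its own. By this rule *hcrt* was 1.58-fold lower (a ratio of -0.66, with a scanner error of 0.37). That is the ratio of the 2 readings as measured, and it is uncertain because the *miR-132* MO reading was not well above background. It lost the 1.5-fold call with quantile normalization (-0.51), with an intensity-dependent loess (-0.56) and with normexp background correction (-0.47). Normexp was run with an offset of 50, which is above both intensities of *hcrt* and shrinks the ratios of dim probes. Here and below, a call that such a dim probe loses with normexp does not decide whether the difference is real. The hypocretin receptor gene *hcrtr2* was well above background on the Ctrl MO array only, at 11.1 against 4.02, and gave no ratio.

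The gene for proopiomelanocortin, *pomca*, was lower by less than 1.5-fold after scaling. This precursor is cut into corticotropin, which drives cortisol output, and into melanotropins, which act on pigment cells. The *pomca* probe had an intensity of 478 with Ctrl MO against 452 with *miR-132* MO, a ratio of -0.33 or 1.26-fold lower. Before scaling, the median foreground of the same spot went the other way from the intensity, from 450.5 to 484.5. With normexp correction of that signal, the ratio after scaling was still below 0, at -0.12. Upstream, *crhb*, the corticotropin-releasing hormone, was at least 1.5-fold lower. Its 2 probes had ratios of -0.65 and -0.64, a mean of 1.57-fold lower, which normexp reduced to a ratio of -0.37. Among genes of prohormone cutting, the convertase gene *pcsk1*, which makes corticotropin from its precursor, had a ratio of -0.54, with 2 probes at -0.55 and -0.53. The 3 probes of the convertase gene *pcsk2* disagreed, at -0.66, -0.23 and 2.95, so that its mean ratio of 0.68 rests on the last of them. That probe had an intensity of 27.1 with Ctrl MO against 248 with *miR-132* MO. *cpe*, a carboxypeptidase that trims the cut peptides, had a mean ratio of -0.32 over 5 probes. Genes downstream of corticotropin were likewise read in RNA of whole larvae and not in the interrenal gland, the adrenal of fish. The corticotropin receptor gene *mc2r* was not well above background on either array. *star*, which brings cholesterol to the start of steroid synthesis, had a ratio of -0.12, and the glucocorticoid receptor gene *nr3c1* a mean ratio of -0.14 over 3 probes.

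The 2 subunit genes of thyrotropin could not both be read. The beta subunit gene *tshba* had an intensity of 43.1 with Ctrl MO against 37.4 with *miR-132* MO, a ratio of -0.45 or 1.37-fold lower, with a scanner error of 0.27. The alpha subunit gene *cga*, which thyrotropin shares with the gonadotropins, read 2.91 and 3.99, with a median foreground of 44 over a local background of 38 on both arrays. It was thus at background in both groups, and no ratio is given. With 1 probe, *cga* is not called absent. *trh*, the hypothalamic releasing hormone, had a ratio of -0.37 from 1 of its 2 probes. *tshr*, the thyrotropin receptor, had a ratio of -0.01, also from 1 of 2 probes. For thyroglobulin (*tg*) no probe matched.

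Growth hormone, prolactin and the somatolactins form 1 family of related proteins, and their cells share the pituitary factor Pou1f1. The growth hormone gene *gh1* had an intensity of 302 with Ctrl MO against 350 with *miR-132* MO, a ratio of -0.03, the smallest difference among the 8 genes with a ratio. *prl*, the prolactin gene, whose product acts on salt and water balance in freshwater fish, had the highest ratio of the set. Its intensity was 47.4 and 75.8, a ratio of 0.43 or 1.35-fold higher with a scanner error of 0.23, which is under 1.5-fold. Within 2-fold of its Ctrl MO level lay 4673 probes that matched a gene and were well above background on both arrays. Of these, 7.88% were at least 1.5-fold higher and 7.94% at least 1.5-fold lower. Probes that passed on the Ctrl MO array only are not among them, which can reduce the lower share. *smtlb*, a somatolactin gene, read 172 and 225, a ratio of 0.14. None of these 3 genes was past the threshold in any setting tried. The ratio of *gh1* was 0.02 with spike-in scaling, so its direction is not settled.

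*smtla*, the other somatolactin gene, gave no ratio. Its intensity was 11.4 on the Ctrl MO array, well above background, and 4.54 on the *miR-132* MO array, not above it. The Ctrl MO reading, once scaled, lay below the lowest level that the *miR-132* MO array called well above background, and no spot that faint passed there. The median foreground of the spot was nearly equal, at 58 and 57, while the local background around it was 37 on the Ctrl MO array against 46 on the *miR-132* MO array. With no filter on dim probes the *smtla* ratio would be read as -1.57, with a scanner error of 1.16. *pou1f1* was in the same position, with intensities of 11.4 and 4.23. *lhx3*, an early pituitary factor, had a ratio of -0.23.

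In order of their ratios the 7 genes read above background on both arrays ran from *oxt* (-1.34) through *tshba* (-0.45), *pomca* (-0.33), *avp* (-0.17), *gh1* (-0.03) and *smtlb* (0.14) to *prl* (0.43). Neighbours from *tshba* onward lay 0.12 to 0.29 apart, less than the combined scanner error of each pair (0.29 to 0.34). The same gaps were 1.2 to 2.9 times the spot SD, which is that of a single ratio and is not combined over the pair. The order within a pair of neighbours is thus not settled, and genes further apart in the order were not compared. *hcrt*, at 1.58-fold lower on a dim reading, has no fixed place in this order.

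**Figure D2:**
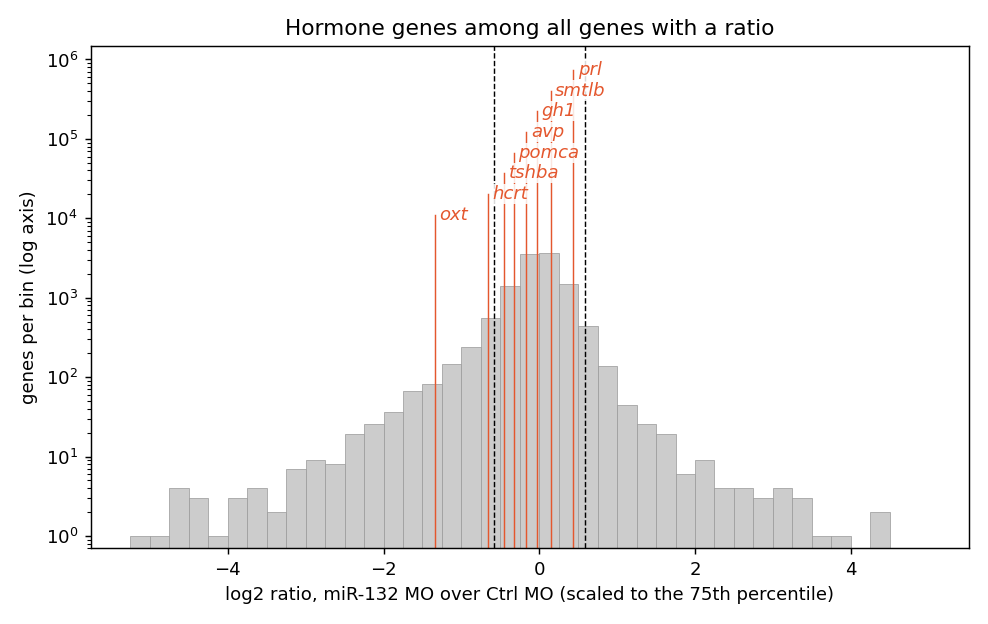
The x axis is the log2 ratio, *miR-132* MO over Ctrl MO, of the 8 hormone genes with a ratio (lines), over a histogram of all 12052 genes (y axis, genes per bin, log axis). Dashed lines mark 1.5-fold. *oxt* lies at -1.34, and *hcrt*, which was dim on the *miR-132* MO array, just past the lower dashed line. The heights of the gene lines carry no value.

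Genes that work with these hormones were grouped in lists by role, and a list's count is read beside the 8.02% of all genes that were at least 1.5-fold lower and the 4.08% higher. Of 22 genes for other hypothalamic peptides and transmitters' enzymes with a ratio, 8 were lower and 1 higher, with a median of -0.40. With only probes above background on both arrays, 7 were lower and 1 higher, with a median of -0.37. The 4 lowest above background on both arrays were single-probe readings. *adcyap1a*, a PACAP precursor, read 137 with Ctrl MO against 73.4 with *miR-132* MO (a ratio of -1.15). The other PACAP precursor gene of the list, *adcyap1b*, had a mean ratio of -0.03 over 4 brighter probes, from -0.20 to 0.16. *nmbb*, a neuromedin B precursor, was at -1.12, *penka*, an enkephalin precursor, at -0.95, and *vip* (vasoactive intestinal peptide) at -0.84. These peptides are also made by neurons elsewhere in the brain and body. *npvf*, an RFamide peptide of the hypothalamus, was the gene that was higher, at 0.62, from 177 to 322. With normexp 4 genes of the list were lower and 0 higher, with *vip* at -0.51 and *npvf* at 0.37.

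Among the transcription factors with a ratio no gene was at least 1.5-fold lower. Of 20 pituitary factors with a ratio, 1 was higher and the median was 0.08. It was *lhx4*, at 0.77, whose 2 probes disagreed, at 0.35 and 1.19. It lost the 1.5-fold call with normexp (0.30) and with its brightest probe alone (0.35), which left 0 pituitary factors higher, while spike-in scaling gave 2. The normexp offset shrinks the ratios of dim probes such as those of *lhx4*, so the normexp value does not decide that call. Of 22 hypothalamic factors, 2 were higher and the median was 0.11. They were *otpa* and *ebf2*, the latter a neuronal differentiation factor, 2.14-fold higher with 3 probes from 0.82 to 1.38 on the log2 scale. With normexp *ebf2* was at 0.49, under 1.5-fold, which left 1 hypothalamic factor higher, while quantile normalization and the intensity loess each gave 3. Genes of prohormone processing and secretory granules had 10 ratios with a median of -0.30, 9 of them below 0, and *pcsk2* was the 1 past the threshold, which it did not reach with normexp (0.33). The 4 further pituitary hormone genes with a probe (*lhb*, *fshb*, *pomcb* and *prl2*) gave no ratio. *prl2* was well above background on the Ctrl MO array only, and the other 3 on neither array.

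The counts of lists downstream of the pituitary are likewise read beside the 8.02% lower and 4.08% higher of all genes. Of 12 receptor genes with a ratio, 1 was lower and 1 higher, with a median of -0.21. The prolactin receptor gene *prlrb* was the higher one, from 67.5 to 140 (a ratio of 0.80 from 1 probe, and 0.29 with normexp). The lower one, *ghrhra*, a receptor gene for growth hormone-releasing hormone, was at -0.80 and was dim on the *miR-132* MO array in 1 of its 2 probes. With normexp, whose offset shrinks the ratios of dim probes, no receptor gene was lower or higher. No receptor gene was lower with probes above background on both arrays or with the brightest probe. In the growth axis, 1 of 18 genes was lower, *igfbp1b* (an insulin-like growth factor binding protein) at -0.73, and the median was -0.05. *igf1*, the main target of growth hormone, had a mean ratio of -0.15, with 2 probes at -0.41 and 0.11. In the thyroid axis 3 of 10 genes were lower and the median was -0.05, which turned to 0.07 with probes above background on both arrays and to 0.12 with no filter. The lower genes were *ttr*, a thyroid hormone carrier made in the liver, *dio1*, a deiodinase, and the iodide transporter gene *slc5a5*. *ttr* was at -2.88 from 1 probe (-2.16 with normexp) and *dio1* at -0.79. The 2 probes of *slc5a5* were both dim on the *miR-132* MO array. In the interrenal and stress axis 1 of 12 genes was lower, the mineralocorticoid receptor gene *nr3c2* at -0.81, and the median was -0.05 (0.07 with quantile normalization). The *nr3c2* reading, from 1 probe, was dim, at 38.7 and 26.1. Normexp gave -0.33, but its offset of 50 is above both intensities, so that value does not decide the call.

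**Figure D3:**
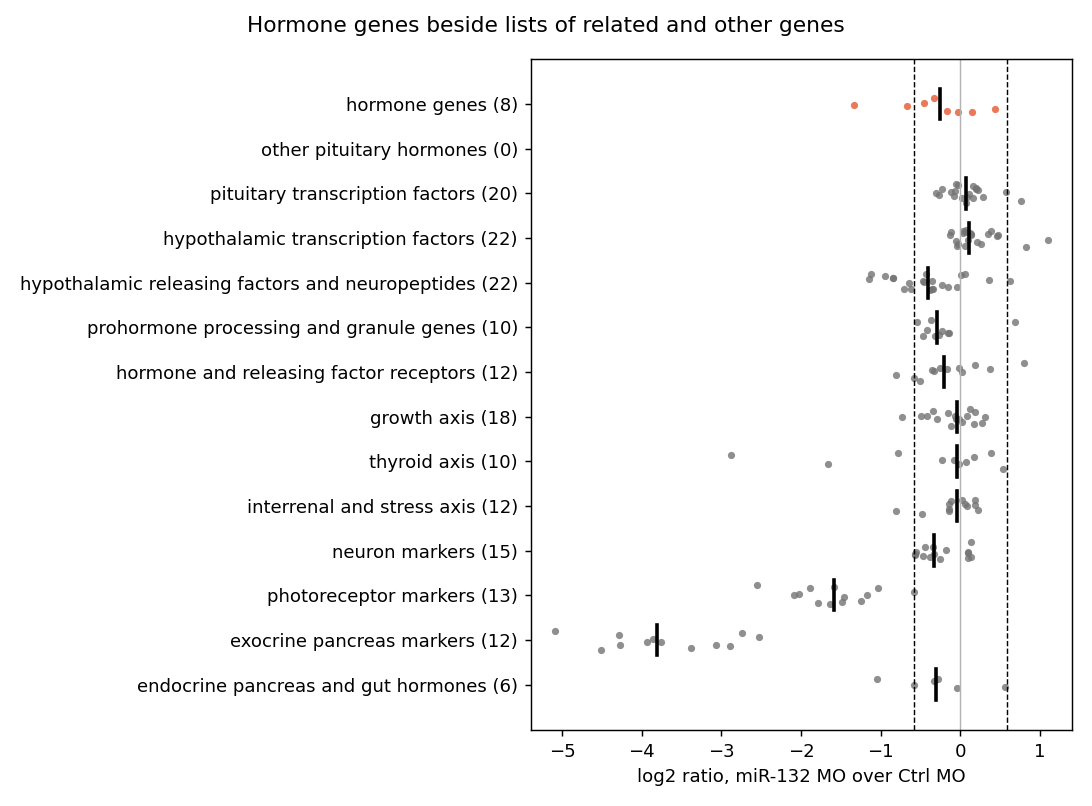
The x axis is the log2 ratio, *miR-132* MO over Ctrl MO, of each gene with a ratio (points, spread vertically for sight only) in the hormone genes and the other 13 lists (y axis, number of genes in parentheses). Thick bars are medians, dashed lines 1.5-fold. The photoreceptor and exocrine pancreas lists lie far to the left, at medians of -1.59 and -3.81, beside -0.25 for the hormone genes.

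Markers of other cells differed between the 2 arrays as well, and their part in the hormone gene values was not tested. All 15 neuron markers with a probe had a ratio, 10 of them below 0, with a median of -0.33 and none past 1.5-fold, though 2 were lower with the brightest probe of each gene. The summed level of their probes, relative to the 75th percentile of each array, was 279 with Ctrl MO against 243 with *miR-132* MO. The pan-neuronal genes *elavl3* and *elavl4* were at 0.10 and 0.09, and the genes for GABA synthesis *gad1b* and *gad2* at -0.57 and -0.56. The ratio of *oxt* was lower than that of every neuron marker measured. The 13 photoreceptor genes with a probe were all lower by 1.5-fold or more, with a median of -1.59 and a summed level of 630 and 227. The highest of these ratios, -0.59, lay at the threshold itself. With quantile normalization, median scaling, spike-in scaling and normexp, 12 were lower. All 12 exocrine pancreas genes measured were lower, with a median of -3.81 (-3.13 with normexp) and a summed level of 136 and 13.2. Every measured gene of these 3 lists had a probe well above background on both arrays.

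The *oxt* difference held in every setting tried. Across 8 other settings that give a ratio its value lay between -1.36 and -1.08, at least 2-fold lower in each. The highest of these values came from normexp and the next, -1.22, from taking the brighter probe alone. The threshold of 2-fold left *oxt* as the 1 hormone gene called lower, where 3.48% of all genes were, and no hormone gene was 2-fold higher, where 1.05% of all genes were. *avp*, *pomca*, *tshba*, *smtlb* and *prl* kept their sign and stayed under 1.5-fold in all 8.

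**Figure D4:**
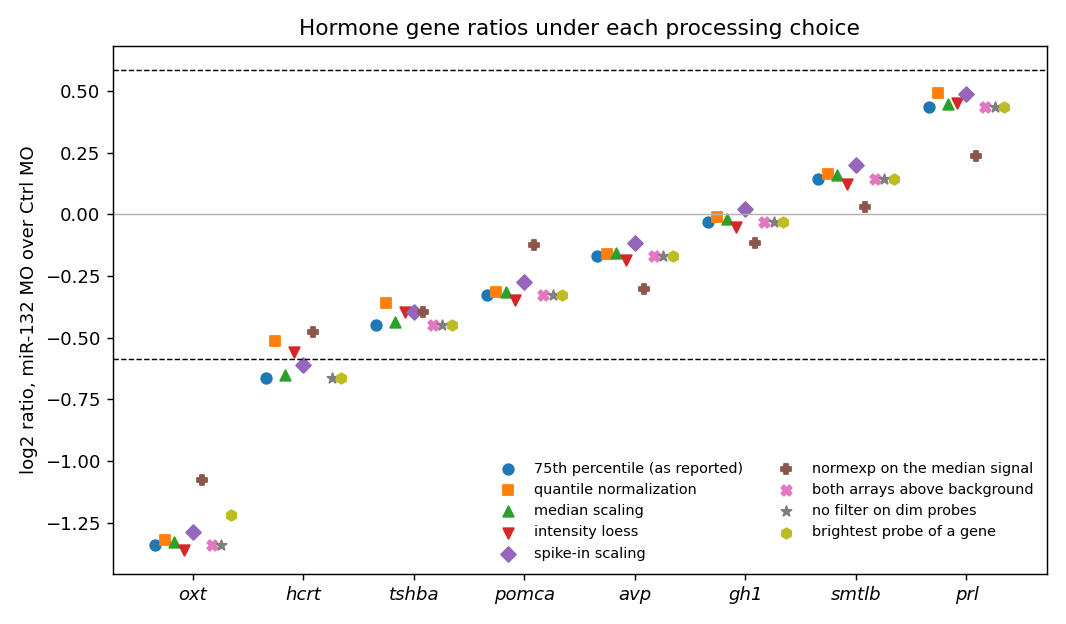
The y axis is the log2 ratio, *miR-132* MO over Ctrl MO, of the 8 hormone genes (x axis) as reported and under 8 other processing choices (symbols). Dashed lines mark 1.5-fold. *oxt* stays between -1.36 and -1.08, and *hcrt* crosses the lower line.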

How the data were processed

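Total RNA of Ctrl MO and *miR-132* MO larvae was amplified, labelled with Cy3 and measured on Agilent arrays, 1 for each group. The authors deposited each spot's intensity as Agilent Feature Extraction 10.7 wrote it, background-subtracted within the array and not normalized between arrays. A rounded copy of these values and a table of the authors' own normalized values and ratios for selected probes were not used. Log2 intensity minus the array's 75th percentile was taken, outlier spots were left out, spots were averaged by probe and probes by gene, and those that passed as well above background on neither array were dropped. A dim side was taken as the larger of its own reading and the faintest reading that passed on that array, and a probe whose bright side lay below that level gave no ratio. Of 26981 probes with a RefSeq accession, 25069 matched the NCBI gene table of assembly GRCz12tu. The array was designed on another build, so no coordinates are given. Genes at least 1.5-fold apart were counted.

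The alternatives were quantile normalization, median scaling, an intensity loess (span 0.3), spike-in scaling, normexp with an offset of 50 (on the median signal), only probes that passed on both arrays, no filter on dim probes, only the brightest probe of a gene and a 2-fold threshold. The members and lists were chosen with earlier results of these data known. Besides the members, the genes named were a fixed set of axis genes and the 4 highest and 4 lowest of each list past 1.5-fold with every probe above background on both arrays. The photoreceptor and pancreas lists are given as lists only. *adcyap1b*, *ghrhra*, *slc5a5*, *oxtr*, *oxtrl*, *hcrtr2*, *prl2*, *lhb*, *fshb*, *pomcb* and the named neuron markers were chosen after their values were seen. A result of the fixed set is not reported here. The code was tested on simulated data. Normalization ran in limma 3.58.1 under R 4.3.3, and the rest in Python 3.11.15 with numpy 2.4.6, pandas 2.3.3 and matplotlib 3.10.9.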

Additional observations from a re-analysis of the deposited data

How the results depend on the processing

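No paired analysis was possible because there is 1 array on either side. Of the 8 hormone genes with a ratio, 2 were lower at 1.5-fold as reported, beside 966 of 12052 genes. The count was 1 with quantile normalization, the intensity loess, normexp, both arrays above background and the 2-fold threshold. *hcrt* left the count each time: its ratio was under 1.5-fold with the first 3, it has no ratio with both arrays above background, and it is under 2-fold. Over all genes, the counts in these settings were 855 of 11972, 959 of 12103, 573 of 12296, 849 of 11740 and 419 of 12052, respectively. Normexp gave a ratio for 9 hormone genes, and both arrays above background for 7. With no filter 3 of 10 were lower, *smtla* included, and the count over all genes is given below. The count of higher hormone genes was 0 in all 9 alternatives. The median of the hormone genes moved by less than the spot SD in each of the 8 alternatives that give a ratio.

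Over all genes, 966 were lower and 492 higher as reported. With normexp 573 were lower and 237 higher, and with a 2-fold threshold 419 and 126. With no filter 1242 were lower and 762 higher. A stricter threshold can only reduce the counts, and the setting with no filter covered more genes, 12857 against 12052. The offset in normexp draws the ratios of dim probes toward 0. How much of each shift these account for was not tested. Of 63 values of single hormone genes under the alternatives, 9 moved by more than the spot SD of 0.10, and none past 1.5-fold changed sign. With 1 array per group the precision cannot be known, and dim genes are limited by the *miR-132* MO array.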

Other observations

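Peptide hormone genes of the pancreas and gut were also measured. Of 6 such genes with a ratio, 2 were lower by at least 1.5-fold after *miR-132* MO, beside 8.02% of all genes. None was higher, beside 4.08% of all genes, and the median was -0.30. The lower count was 1 with quantile, median, loess and spike-in scaling and with a 2-fold threshold, and 0 with normexp, and the higher count was 1 with spike-in scaling and with the brightest probe. *ghrl*, the ghrelin gene, read 46.5 with Ctrl MO against 26.7 with *miR-132* MO, a ratio of -1.05 from 1 probe, and was at -0.44 with normexp. *gip*, an incretin gene, read 50.7 and 40.0, a ratio of -0.59 that lies at the threshold itself (-0.20 with normexp). Both *ghrl* and *gip* read near or below the normexp offset of 50, which shrinks their ratios. Their normexp values thus do not decide the calls. The insulin gene *ins* had a mean ratio of -0.32 and the glucagon gene *gcga* of -0.04. The somatostatin gene *sst2* had a mean ratio of 0.57. *ins*, *gcga* and *sst2* were named after their values were seen.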
